A study of Mus musculus with 34 samples.

Results

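The late effect of irradiation and marrow transplant, without depletion of microglia, was examined in the cortex by setting the GFP-BM CON libraries (n = 4) against the WT CON libraries (n = 3). These 7 libraries were chosen from the 34 of the series by their group and region. Each was made from the total RNA of the cortex of 1 C57BL/6 mouse. WT CON mice are labelled as given vehicle and had no irradiation, transplant or inhibitor. GFP-BM CON mice received 1000 cGy of whole-body irradiation and bone marrow from CAG-EGFP mice, whose cells carry EGFP under a promoter that is active in nearly all tissues, and they received no inhibitor of CSF1R. Their tissue was taken 10 months after irradiation. The study's design gives the age at irradiation as 4 months, and its general methods give 1.5 months. No group was irradiated without a transplant, so the effects of the 2 procedures cannot be told apart. The GFP-BM REPOP cortex libraries (n = 4) helped to estimate the spread and are given beside the results. Their mice had the same irradiation and transplant, were fed PLX3397, an inhibitor of CSF1R, 3.5 months later (600 ppm in the diet, 14 days) and then recovered for 6 months.

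Microglia are the resident macrophages of the brain. They renew themselves locally and need signals through the receptor CSF1R, whose ligands are CSF1 and IL-34, the latter made mostly by neurons. Irradiation of the head, followed by a marrow transplant, lets some myeloid cells from the blood enter the brain and settle there beside the resident cells. ATF4 is a transcription factor whose translation rises when amino acids are short or the endoplasmic reticulum is stressed, and it activates genes that make, import and load amino acids.

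The 7 libraries held between 20843807 and 26010509 reads, recovered from the deposited FPKM values (fragments per kilobase of transcript, scaled to the library's total). The summed FPKM of 13 markers of cortical excitatory neurons lay between 1260 and 1370 in these libraries, against 313 to 768 in the thalamus and 768 to 2060 in the hippocampus, so these markers set the cortex apart from the thalamus but not from the hippocampus. The study gives the tissue labelled thalamus as thalamus with striatum. Markers of neighbouring tissue varied more. Striatal markers summed to 273 to 506 FPKM in WT CON and 182 to 479 in GFP-BM CON of the cortex. In the thalamus libraries they summed to 153 to 710, so the cortex samples held a variable amount of striatal transcripts. The choroid plexus markers summed to 417 to 458 FPKM in WT CON and 52 to 413 in GFP-BM CON, and none of the 7 tested members passed the test. The libraries also differed in their GC measure, the median log2 level of the genes richest in G and C minus that of the poorest. It was 0.89, 1.31 and 0.78 in WT CON and 0.58, 0.68, 0.46 and 0.65 in GFP-BM CON, without overlap. GFP-BM CON replicate 1 had 0.0185 FPKM of *Xist* and 46.9 FPKM of Y-linked genes in sum, whereas the other 10 cortex libraries had 27.7 to 53.3 FPKM of *Xist* and at most 0.0963 of Y-linked genes. The methods describe all mice other than the donors as male. The transcripts of replicate 1 match that statement. The other 10 cortex libraries, all WT CON libraries among them, have *Xist* and almost no Y-linked transcripts, which conflicts with it. The reason was not tested. Because replicate 1 stands apart from the libraries it is compared with, the count of changed genes is also given without it.

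Of 13813 genes tested, 47 were differentially expressed genes (DEGs), that is genes with a limma adjusted p under 0.05, on the scale of log2(FPKM + 0.1), which understates the changes of low genes. This was 0.340% of the genes tested. Percent changes are on the same scale. In GFP-BM CON, 31 were higher (0.224%) and 16 were lower (0.116%). For all 47, no library of one group reached into the range of the other, which held for 16.5% of all genes (12% on the higher and 4.47% on the lower side). The p-values measure the spread between these mice. The balance of higher and lower DEGs depended on the scaling, with 38 higher and 33 lower after quantile normalization, 27 and 24 after median-ratio scaling, 21 and 26 with voom on the recovered reads, and 35 and 36 after correction for GC content and length. Without GFP-BM CON replicate 1, 7 genes were higher and 9 lower, and 14 of these 16 were among the 47. The other 33 kept their sign, with adjusted p from 0.0786 to 0.139, and among them were *Slc7a3*, *Yars*, *Cars*, *Nars*, *Gabra2*, *Ago3*, *Wdfy1*, *Malat1* and *Smg1*. At an unadjusted p under 0.05, 1742 genes were higher and 532 lower. When limma was fitted to all 34 libraries together, no gene passed in the cortex, the smallest adjusted p being 0.101 and 423 genes having an unadjusted p under 0.05. The DEGs that were called again whichever of the 11 cortex libraries was left out were *Csf1r*, *Atf4* and *Asns* among the falls and *Zbtb20* and *Cd300ld3* among the rises. These refits kept the filter of the main fit. *Zbtb20* and *Cd300ld3* were under 1 FPKM in every WT CON library, so they passed that filter only through irradiated libraries, where they were high.

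*Csf1r*, the receptor on which microglia depend, had the smallest p of all genes tested. Its FPKM was 20.1, 19.1 and 20.7 in WT CON and 10.8, 12.2, 11.7 and 12.8 in GFP-BM CON. Every irradiated library was therefore well under every control, and the mean fell by 40.3% (log2 fold change -0.74 ± 0.07 SE, adjusted p = 0.00214). Neither of its ligands passed the test. *Csf1* stood at 6.04, 6.64 and 6.1 FPKM in WT CON and 6.07 to 6.44 in GFP-BM CON, and the ranges overlapped (log2 fold change -0.01 ± 0.06, adjusted p = 0.976). *Il34* stood at 30.5 to 31.6 and 31.9 to 33.2 FPKM, slightly higher in each irradiated library, with a log2 difference of 0.06 ± 0.05 and an adjusted p of 0.57. The ligands were added to the genes described after their values had been seen. In these bulk samples, fewer cells of a type and less RNA per cell cannot be told apart. *Csf1r* remained a DEG without GFP-BM CON replicate 1 (log2 fold change -0.70, adjusted p = 0.00599) and after correction for GC content and length (-0.74, adjusted p = 0.00126). The GFP-BM REPOP libraries, which share the WT CON controls, had 16.1, 13.9, 15.5 and 15.1 FPKM. They lay between the other 2 groups, with an adjusted p of 0.021 against WT CON and 0.093 against GFP-BM CON.

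*Ctss*, the lysosomal protease cathepsin S, had 40.5, 40.4 and 39.2 FPKM in WT CON against 26.7, 28.5, 27.9 and 32.5 in GFP-BM CON, without overlap. Its adjusted p was 0.0502, so it did not pass, with a log2 fold change of -0.47 ± 0.09. After correction for GC content and length its adjusted p was 0.0335.

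Of 13 pan-myeloid genes tested, *Csf1r* alone passed, 11 had a negative and 2 a positive sign, and the median log2 fold change was -0.16, beside 0.02 over all genes tested. Of 15 homeostatic microglial genes, 1 passed, 12 were below the controls in sign, and the median was -0.10, or -0.28 after correction for GC content and length. *Aif1*, which encodes the pan-myeloid protein IBA1, stood at 4.72, 5.51 and 5.82 FPKM in WT CON and 5.86, 5.58, 5.29 and 4.19 in GFP-BM CON (log2 fold change -0.04 ± 0.15). *Cd68*, a lysosomal protein of phagocytes, likewise overlapped between the groups (-0.08 ± 0.13). *Tmem119*, a surface protein of microglia, was 8.67 to 11 FPKM in WT CON and 7.15 to 8.26 in GFP-BM CON, and the groups did not overlap (-0.35 ± 0.14, adjusted p = 0.24). *P2ry12*, a purinergic receptor of microglia, had the opposite sign (0.35 ± 0.18, adjusted p = 0.38), but its value was -0.04 ± 0.14 after correction for GC content and length. *Cx3cr1* (-0.28 ± 0.08), *Siglech* (-0.43 ± 0.12) and *Crybb1* (-1.03 ± 0.25) did not overlap between the groups, with adjusted p from 0.116 to 0.143.

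**Figure D1:**
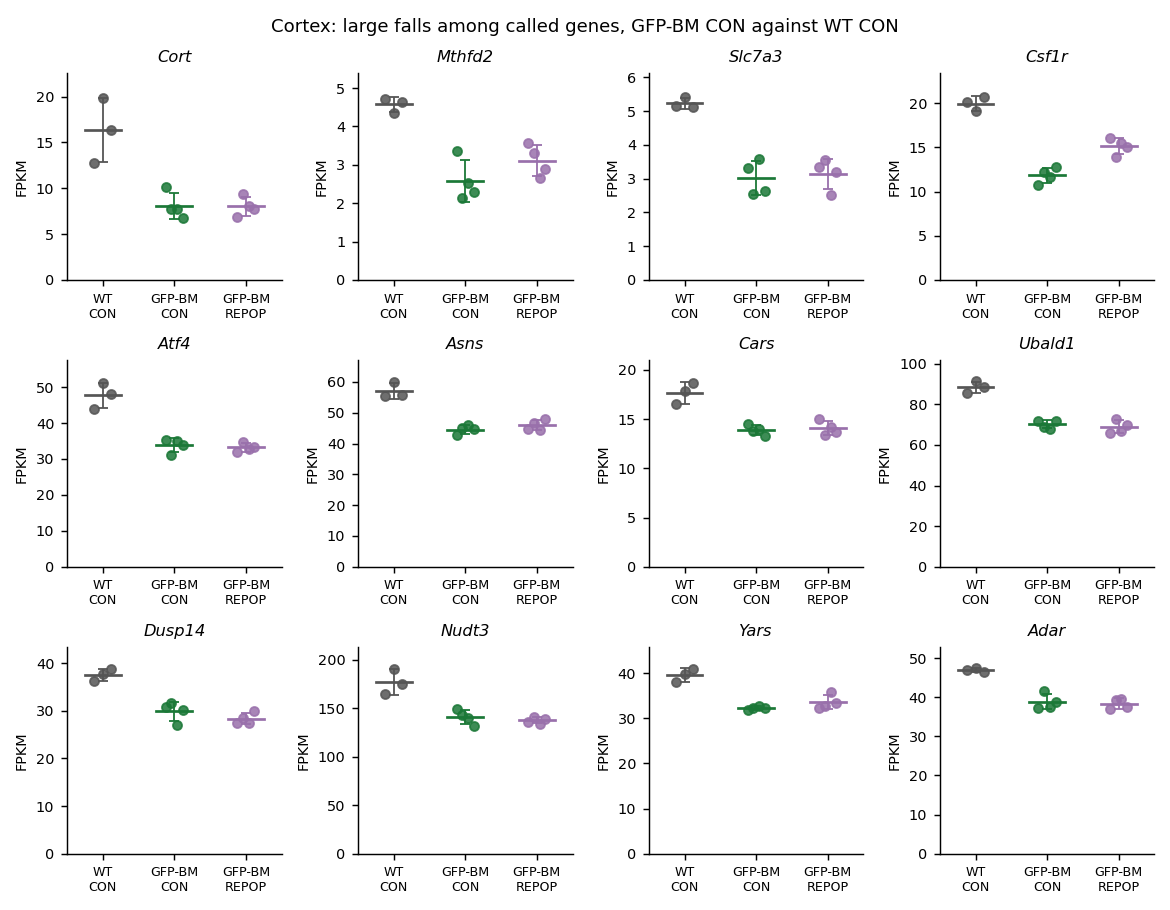
FPKM (linear axes from 0) of 12 of the lower DEGs with the largest falls, in each cortex library. Points are libraries (WT CON n = 3, GFP-BM CON n = 4, GFP-BM REPOP n = 4), horizontal lines are means and error bars are SD. In each panel the 4 GFP-BM CON points lie below the 3 WT CON points, and for Csf1r the GFP-BM REPOP points, at 13.9 to 16.1 FPKM, lie between them.

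The genes that the study's text names as a monocyte signature were also examined. The study chose them on these samples, so their direction here is not independent evidence. Of 14 genes named as rising, 10 passed the filter, but 6 of these (*Ms4a7*, *Ms4a6b*, *Ms4a6c*, *Mrc1*, *Lilrb4a* and *Apobec1*) passed only through the GFP-BM REPOP libraries, where they were high, so no summary over the list is given. The DEGs among the genes named as rising were *Nnt*, a mitochondrial transhydrogenase that carries a deletion in some C57BL/6 substrains, and *Wdfy1*, an endosomal adaptor protein. *Nnt* rose from 6.21, 5.40 and 6.13 to 8.88, 8.58, 9.26 and 9.38 FPKM (log2 fold change 0.60 ± 0.08, adjusted p = 0.013). *Wdfy1* rose from 6.84, 6.77 and 6.51 to 11.5, 12.8, 13.1 and 16.8 FPKM (0.99 ± 0.17, adjusted p = 0.035). For neither gene did the groups overlap. *Lyz2*, the macrophage lysozyme, was 6.86 to 7.96 FPKM in WT CON and 9.57 to 17.6 in GFP-BM CON, apart but with an adjusted p of 0.12. *Ms4a7*, a membrane protein of macrophages, went from 0.0955 to 0.262 FPKM in controls to 0.411 to 0.986 (log2 fold change 1.5 ± 0.30, adjusted p = 0.074). *Mrc1*, the mannose receptor of border macrophages, was 0.229 to 0.425 FPKM and 0.679 to 0.770 (0.93 ± 0.25, adjusted p = 0.12), whereas the other tested genes of border macrophages, *Pf4* (-0.04 ± 0.38) and *Stab1* (0.05 ± 0.13), overlapped between the groups. *Ms4a6b* (1.27 ± 0.31, adjusted p = 0.115) and *Ms4a6c* (0.78 ± 0.28, adjusted p = 0.198) were apart and did not pass. *Lilrb4a* (0.99 ± 0.28, adjusted p = 0.143), *Apobec1* (0.25 ± 0.23) and *AU020206* (-0.04 ± 0.24) overlapped. *Ccr1*, *Msr1*, *Tlr8* and *Tmem221* lay below the filter with at most 0.269 FPKM in any of the 7 libraries. Of 9 genes named as falling, 8 were tested, none was a DEG and 5 had an unadjusted p under 0.05 on the lower side (3.85% of all genes), with a median of -0.42. The lowest p belonged to *Crybb1*, and *Lag3*, an immune checkpoint receptor, had 3.00 to 3.51 and 1.06 to 1.92 FPKM. *Siglech*, *Itgam* (-0.40 ± 0.13, adjusted p = 0.166) and *Selplg* (-0.55 ± 0.22, adjusted p = 0.237) were also apart, whereas *Slc2a5* (0.00 ± 0.18), *Ccl21a* (-0.32 ± 0.54) and *Ccl21b* (-0.32 ± 0.99) overlapped.

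*Cd300ld3* (chr11:115042104-115048419), a member of the CD300 family of receptors of myeloid cells, also rose. It had 0.547, 0.412 and 0.389 FPKM in WT CON and 1.63, 1.24, 2.44 and 2.15 in GFP-BM CON. Even the lowest irradiated library was above the highest control, and the level was 3.5 times as high (log2 fold change 1.81 ± 0.22, adjusted p = 0.011). The GFP-BM REPOP libraries had 2.16 to 2.88 FPKM. Reads of closely related family members may have been shared between them in counting. No marker of circulating blood cells was a DEG. The lists of T and NK cells, B cells and neutrophils had no tested member, since genes of antigen receptors were of other biotypes and the rest lay below the filter or were not listed. Their summed FPKM was 31.1 to 40.9 against 27.6 to 37.5 for T and NK cells, and 24 to 37 against 21.5 to 28.2 for B cells. Of the monocyte markers *Itga4* (0.59 ± 0.25, adjusted p = 0.26) and *S100a4* (-0.27 ± 0.36) were tested, neither of them a DEG.

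Several falls were of genes that handle amino acids. *Atf4* (chr15:80255184-80257545) had 44.0, 51.1 and 48.0 FPKM in WT CON and 35.4, 31.0, 34.9 and 33.8 in GFP-BM CON. It fell by 29.1%, every irradiated library was below every control (log2 fold change -0.50 ± 0.06, adjusted p = 0.011), and GFP-BM REPOP libraries stood at 32.0 to 34.8 FPKM. *Asns*, asparagine synthetase, went from 55.4, 60.1 and 55.9 FPKM to 42.7, 45.0, 45.9 and 44.6. It fell by 22%, and the groups were apart (-0.36 ± 0.04, adjusted p = 0.011). *Mthfd2*, a mitochondrial enzyme of one-carbon metabolism, went from 4.72, 4.36 and 4.64 FPKM to 3.36, 2.14, 2.53 and 2.30, a fall of 43.4% (-0.82 ± 0.15, adjusted p = 0.042). Its highest irradiated value was that of replicate 1, and without that library the log2 fold change was -0.95 (adjusted p = 0.026). *Slc7a3*, a transporter of cationic amino acids, went from 5.16, 5.42 and 5.11 to 3.33, 2.55, 3.58 and 2.64 FPKM, again without overlap (-0.78 ± 0.14, adjusted p = 0.042).

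Of 26 genes listed as ATF4 targets or enzymes of one-carbon metabolism, 22 were tested. *Atf4*, *Asns* and *Mthfd2* were DEGs, and no member was a higher DEG. The sign was negative for 20 and positive for 2. On the lower side 14 had an unadjusted p under 0.05, where 3.85% of all genes stood. On the higher side 1 did, *Slc7a11*, where 12.6% of all genes stood. The groups did not overlap for 13 of the 22, on the lower side (4.47% of all genes). The median log2 fold change was -0.21, and between -0.20 and -0.26 under the other scalings tried. *Chac1*, which degrades glutathione, had 6.49, 6.17 and 5.76 FPKM against 3.59, 3.63, 3.90 and 3.78 and just missed the threshold (-0.71 ± 0.14, adjusted p = 0.059). The amino acid transporter *Slc7a1* (-0.25 ± 0.06, adjusted p = 0.098) and the serine synthesis enzymes *Psat1* (-0.20 ± 0.05, adjusted p = 0.13) and *Psph* (-0.24 ± 0.07, adjusted p = 0.13) did not pass. *Ddit3*, which encodes the stress-induced factor CHOP, stood at 23.2 to 27.9 and 23.9 to 25.4 FPKM (-0.02 ± 0.08), and the cystine transporter *Slc7a11* had a positive sign (0.43 ± 0.18, adjusted p = 0.26, and 0.05 after correction for GC content and length).

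Because 3 aminoacyl-tRNA synthetases, the enzymes that load amino acids onto tRNA, were among the 16 falls, all 20 genes of the cytosolic enzymes were then examined, a list chosen after its values had been seen. *Yars*, for tyrosine, had 38.0, 39.9 and 41.0 FPKM in WT CON and 31.8, 32.2, 32.8 and 32.3 in GFP-BM CON (-0.29 ± 0.04, adjusted p = 0.023). *Cars*, for cysteine, had 16.5, 17.9 and 18.7 against 14.5, 13.8, 14.0 and 13.3 FPKM (-0.35 ± 0.06, adjusted p = 0.033). *Nars*, for asparagine, had 89.1, 94.2 and 92.8 against 79.7, 78.9, 77.6 and 78.3 FPKM (-0.23 ± 0.04, adjusted p = 0.033). These falls were small, of 14.6 to 21.3%, and the groups were apart. Of the 20, 17 had a negative sign with a median of -0.09. *Gars*, for glycine, came next (-0.25 ± 0.05, adjusted p = 0.067), whereas *Hars*, for histidine, had a positive sign (0.17 ± 0.05, adjusted p = 0.17).

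ATF4 and its partners of the C/EBP family bind the element TGATGNAA. It was searched on both strands of the RefSeq windows (GRCm38.p6) from 250 bases before to 50 bases after each gene's start. The stretches around the match before *Asns* (chr6:7693211-7693246, gene on the minus strand) and *Chac1* (chr2:119351035-119351070, plus strand) are shown on the strand of the gene, because *Asns* was a DEG and *Chac1* had the largest fall in value among the tested list members with a match. Capitals mark the match, which for *Chac1* is on the opposite strand. Its first base is at position -23 from the start for *Asns* and -193 for *Chac1*.
Asns: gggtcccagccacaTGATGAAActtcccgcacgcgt
Chac1: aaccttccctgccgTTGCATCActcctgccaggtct
The element was present for 8 of 24 ATF4-list genes with a window (33.3%), tested or not, and 5 of 13 synthetases (38.5%). It was present for 4.51% of all 27025 genes with a window, 2.63% of the 10796 tested ones and 3.97% of all 32851 windows. Many genes of the list were known as targets of ATF4 when it was made, so a higher share is part of how it was chosen. Among the 10 lower DEGs with a window, 2 held the element (*Asns* and *Yars*), and among 21 higher DEGs, also 2. A match describes the letters in the window and is not a measurement of binding.

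**Figure D2:**
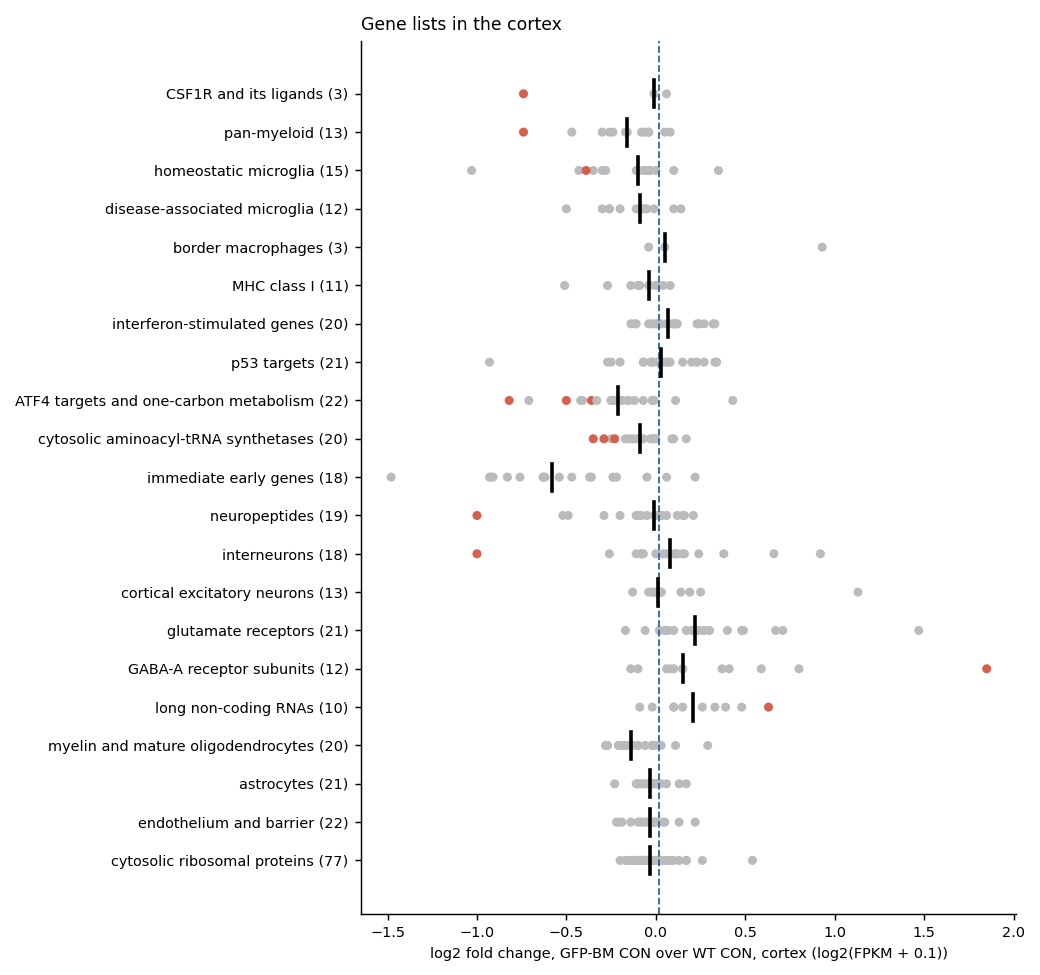
Log2 fold change of GFP-BM CON over WT CON in the cortex for every tested member of 21 gene lists (number tested in brackets). Grey points are genes, red points DEGs, black bars list medians and the dashed line the median over all genes tested, 0.02. The ATF4 list has 3 DEGs and a median of -0.21, and immediate early genes have a median of -0.58 with no DEG.

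The remaining falls were of genes with separate functions. *Cort*, the neuropeptide cortistatin of cortical interneurons, showed the largest, from 12.8, 19.8 and 16.4 FPKM to 10.1, 7.76, 7.75 and 6.77. It fell by 49.8% (-1.0 ± 0.16, adjusted p = 0.033), with no irradiated library above 10.1 FPKM and no control under 12.8. It was the only DEG among 19 neuropeptide genes tested (median -0.01) and among 18 interneuron genes (median 0.08). *Crhbp*, a binding protein for corticotropin-releasing hormone, had 12.8 to 14.6 and 7.95 to 11.8 FPKM (-0.49 ± 0.11, adjusted p = 0.097). *Adar*, an enzyme that edits adenosine in RNA, had 46.9, 47.5 and 46.5 FPKM against 37.3, 41.5, 37.6 and 38.8, a fall of 17.4% (adjusted p = 0.033). *Gls2*, a mitochondrial glutaminase, had 13.4, 13.8 and 14.3 FPKM against 11.5, 11.2, 11.5 and 11.5, a fall of 17.3% (adjusted p = 0.033). For both the groups were apart. The phosphatase gene *Dusp14* (-0.33 ± 0.06, adjusted p = 0.035), *Ubald1* (-0.33 ± 0.04, adjusted p = 0.013), *Nudt3*, an enzyme that acts on inositol pyrophosphates (-0.32 ± 0.05, adjusted p = 0.033), and *Tspyl4* (-0.24 ± 0.04, adjusted p = 0.040) were also lower. After the correction for GC content and length *Gls2* (-0.24, adjusted p = 0.053) and *Dusp14* (-0.31, adjusted p = 0.051) kept about the same fold and just missed the threshold.

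Of the rises, *Zbtb20* (chr16:42875689-43634392) was called again whichever library was left out, though it passed the unchanged filter only through irradiated libraries. This transcriptional repressor is known for its role in hippocampal neurons and in astrocytes. It had 0.570, 0.622 and 0.496 FPKM in WT CON and 2.62, 2.15, 1.98 and 2.19 in GFP-BM CON, so that the lowest irradiated library was far above the highest control (log2 fold change 1.81 ± 0.20, adjusted p = 0.010). It was listed with hippocampal markers, but WT CON hippocampus libraries had 0.216 to 0.721 FPKM of it, a range that holds the cortex controls. The other tested markers of that list were not DEGs, and they were no test of its rise. Their log2 fold changes were -0.04 for *Prox1*, -0.53 for *C1ql2*, -0.23 for *Fibcd1* and -0.04 for *Wfs1*. With all 34 libraries in one fit, *Zbtb20* also rose in hippocampus (1.32 ± 0.44) and thalamus libraries (2.47 ± 0.47). Its cortex value was 1.40 after correction for GC content and length (adjusted p = 0.0101). *Gm3257*, a numbered gene model that the reference annotation did not match, had the largest rise of all DEGs, from 0.532, 0.515 and 0.292 to 7.31, 3.56, 3.72 and 3.09 FPKM (3.00 ± 0.41, adjusted p = 0.017). Its highest value came from replicate 1, without which the log2 fold change was 2.73. Like *Zbtb20*, it was under 1 FPKM in every WT CON library and passed the filter only through irradiated libraries. There were 6 numbered gene models among the 31 rises, with log2 fold changes from 0.32 to 3.00, and the pair *Gm15319* and *Gm21119*, of equal transcript length on the same chromosome, may have shared reads.

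Other large rises were of genes with separate functions. *Gabra2*, a subunit of the GABA-A receptor, had 6.38, 3.16 and 8.48 against 17.4, 17.5, 24.1 and 23.2 FPKM (1.85 ± 0.30, adjusted p = 0.033). Its controls spread widely, and the highest of them was still well under the irradiated libraries. *Ago3*, an Argonaute protein that binds small RNAs, had 1.70, 1.41 and 2.55 against 4.65, 4.2, 4.19 and 4.14 FPKM (1.18 ± 0.17, adjusted p = 0.023). *Zbtb37*, a zinc finger protein, had 0.751, 1.35 and 0.931 FPKM against 2.41, 2.36, 1.97 and 2.38 (1.13 ± 0.19, adjusted p = 0.033). *Bbof1*, a protein of the ciliary basal body, had 2.31, 1.79 and 2.87 FPKM against 5.18, 3.85, 4.18 and 4.03 (0.88 ± 0.15, adjusted p = 0.033). In all these the irradiated libraries were above the controls without exception. *Lrp1b*, a receptor of the LDL receptor family, *Lrrc7*, the postsynaptic protein densin, and *Ptar1* rose by 73.8 to 77.2%, with adjusted p from 0.034 to 0.044.

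**Figure D3:**
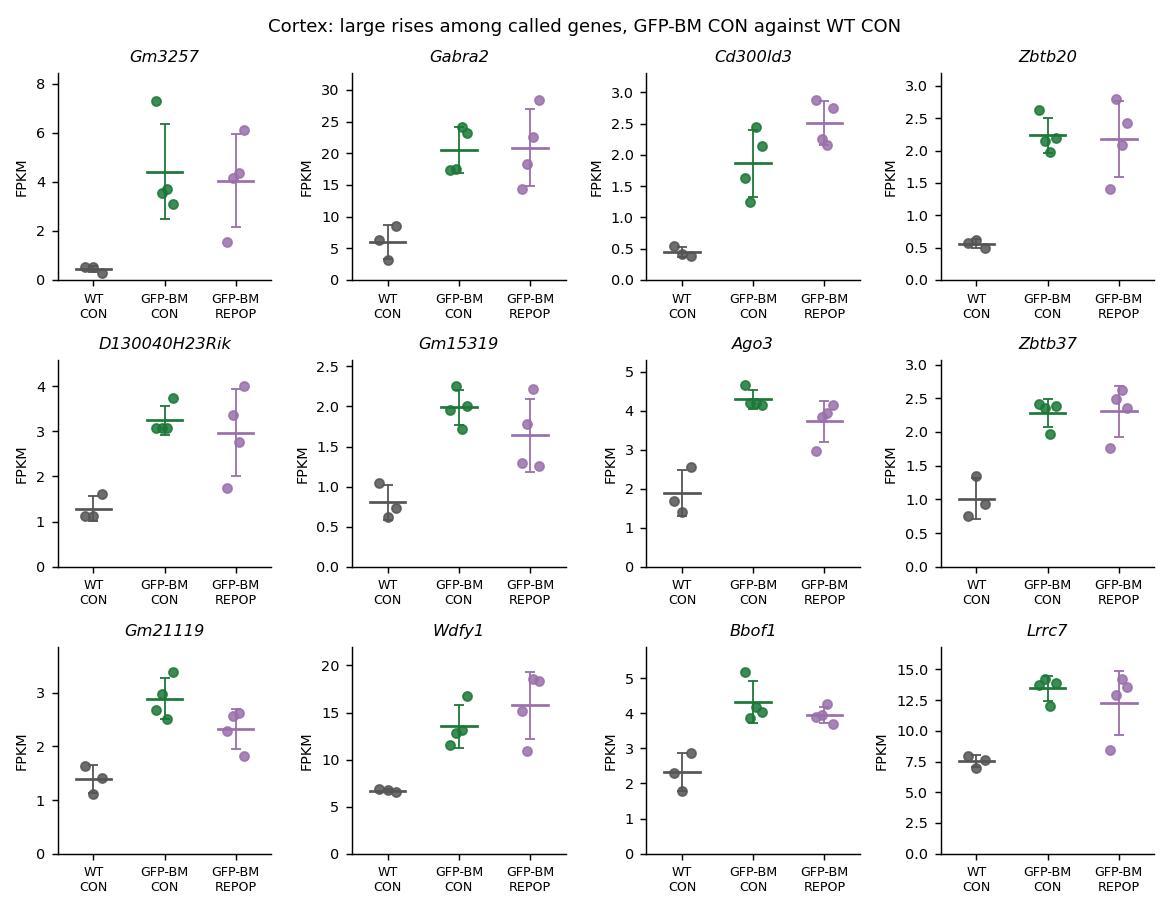
FPKM (linear axes from 0) of 12 of the higher DEGs with the largest rises, in each cortex library, with points for libraries (WT CON n = 3, GFP-BM CON n = 4, GFP-BM REPOP n = 4), lines for means and error bars for SD. All GFP-BM CON points lie above all WT CON points, and for Zbtb20 they run from 1.98 to 2.62 FPKM against 0.496 to 0.622.

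Rises of more abundant transcripts were smaller. *Ndn*, the imprinted gene of necdin, had 59.1, 84.6 and 68.5 FPKM against 114, 115, 124 and 108 (0.72 ± 0.10, adjusted p = 0.015). *Malat1*, a long non-coding RNA of the nucleus, had 281, 241 and 263 FPKM against 430, 451, 390 and 359 (0.63 ± 0.11, adjusted p = 0.033). It was the only DEG of 10 long non-coding RNAs tested, whose median was 0.21 before and after correction for GC content and length. *Dynlt1b*, a light chain of dynein with near-identical copies between which reads may be split, rose by 55.1% (adjusted p = 0.035). *Rnf217*, a ubiquitin ligase, had 3.45 to 3.78 FPKM against 4.95 to 5.40 (0.53 ± 0.07, adjusted p = 0.017). After correction for GC content and length its value was -0.05 ± 0.15, which lies within its SE of 0. *Smg1*, the kinase of nonsense-mediated decay (0.39 ± 0.06, adjusted p = 0.033), *Sfpq*, a splicing factor (0.38 ± 0.07, adjusted p = 0.042), and *Fip1l1*, of the polyadenylation machinery (0.38 ± 0.07, adjusted p = 0.044), were also higher. Of 67 tested genes in a list of splicing factors that does not hold *Sfpq*, none was a DEG, and the median was 0.01. The lipid transfer protein *Vps13c* (0.43 ± 0.07) and the serine protease *Prss12* (0.39 ± 0.07) also rose. The smallest rises, of 16.2 to 22.2%, were of *Celf3*, an RNA-binding protein, *Mapk3*, the kinase ERK1, *Prps1*, an enzyme of nucleotide synthesis, and *Ajap1*.

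GC content differed between higher and lower DEGs, and its part in the result was not tested beyond the correction. The median was 44% for the 28 higher DEGs with a value, 53.1% for the 16 lower DEGs and 50% for all genes tested. Transcript length had medians of 4122, 2659 and 3464 bases in the same order. Among the 1307 genes with the lowest GC content, up to 41.5%, the median log2 fold change was 0.24, with 7 higher and 0 lower DEGs. Among the 1306 with the highest, from 58.2%, it was -0.01, with 1 DEG in each direction. After each library was corrected for GC content and length, these medians were -0.12 and 0.00, and 19 of the 28 higher and 14 of the 16 lower DEGs still passed. Among the rises that did not pass then were *Zbtb37* (0.68), *Ptar1* (0.28), *Smg1* (0.13), *Fip1l1* (0.19) and *Vps13c* (0.24), which kept a positive sign, and *Rnf217*, which did not.

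**Figure D4:**
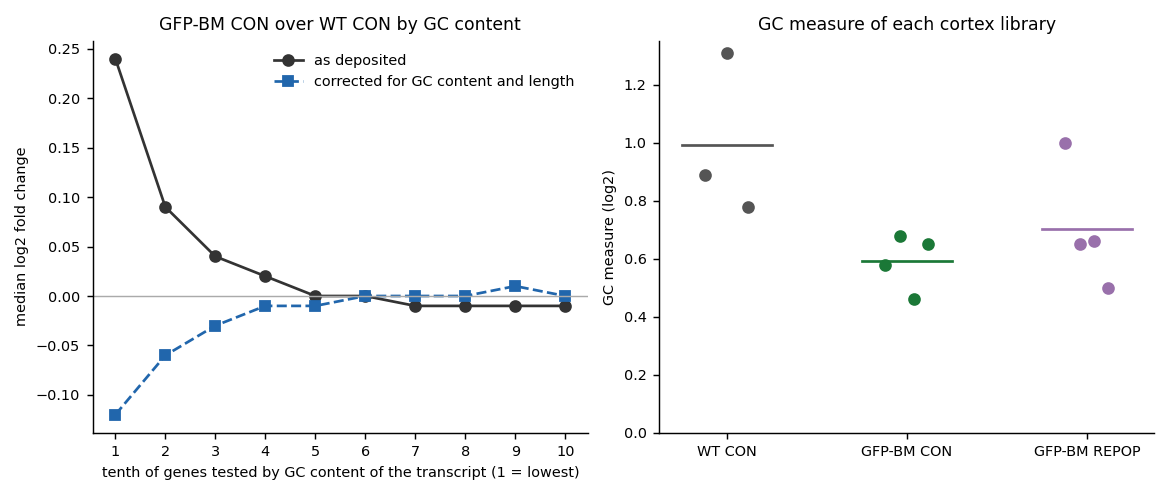
Left, median log2 fold change of GFP-BM CON over WT CON in 10 equal groups of the tested genes by GC content of the transcript, as deposited (solid) and corrected for GC content and length (dashed). Right, GC measure (log2) of each cortex library, with lines for means. The uncorrected median is 0.24 in the group of lowest GC content, and the 4 GFP-BM CON libraries, at 0.46 to 0.68, lie below the 3 WT CON libraries.

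None of 21 glutamate receptor genes was a DEG, but 12 had an unadjusted p under 0.05 on the higher side, where 12.6% of all genes stood, and the median log2 fold change was 0.22. It was 0.08 after correction for GC content and length. *Grik2*, a kainate receptor subunit, went from 5.54 to 8.20 FPKM in controls to 10.5 to 12.9 (0.67 ± 0.17, adjusted p = 0.12), yet its corrected value was 0.08. *Gria4*, an AMPA receptor subunit, went from 12.5 to 17.2 to 18.7 to 24.0 FPKM (0.48 ± 0.15, adjusted p = 0.16, corrected value 0.37). Of 12 GABA-A receptor subunits, *Gabra2* alone passed, and the median of 0.15 became -0.04 after the correction. Immediate early genes, which neurons switch on when active, summed to 536 to 743 FPKM in WT CON and 435 to 501 in GFP-BM CON. Of 18, none was a DEG, 16 had a negative sign, 8 had an unadjusted p under 0.05 on the lower side (3.85% of all genes), and the median was -0.58 with every scaling between -0.58 and -0.62. *Egr1*, a transcription factor of this class, had 119, 158 and 151 FPKM against 100, 78.4, 95.9 and 96.7 (-0.62 ± 0.19, adjusted p = 0.16). *Fosl2*, of the AP-1 family, had 8.04 to 9.18 against 4.55 to 6.67 FPKM (-0.54 ± 0.12, adjusted p = 0.098).

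Lists tied to radiation injury held no DEG. Of 21 p53 targets tested the median was 0.03, and 2 genes in each direction had an unadjusted p under 0.05 (12.6% of all genes on the higher and 3.85% on the lower side), among them *Polk*, a translesion polymerase (0.34 ± 0.11, adjusted p = 0.17, corrected value 0.14), and *Btg2*, which is also an immediate early gene (-0.93 ± 0.40, adjusted p = 0.27). Of 14 DNA repair genes the median was 0.04, or 0.01 after correction for GC content and length. On the higher side 4 had an unadjusted p under 0.05 (12.6% of all genes), and on the lower side 0. The kinase gene *Prkdc* had the smallest p, with 2.21 to 2.57 FPKM against 3.00 to 3.58 (0.46 ± 0.11, adjusted p = 0.12, corrected value 0.17). The others were *Atm* (0.34 ± 0.11), *Rad50* (1.05 ± 0.35) and *Atr* (0.85 ± 0.30), with adjusted p from 0.173 to 0.19. Proliferation genes (4 tested) had a median of -0.04. Interferon-stimulated genes (20 tested, median 0.07), MHC class I genes (11 tested, median -0.04) and complement genes (11 tested, median 0.07) likewise had no DEG. The same held for 21 astrocyte genes (median -0.03), 22 genes of endothelium and barrier (median -0.03) and 20 of myelin and mature oligodendrocytes (median -0.14, with 17 negative in sign). *Gfap*, the intermediate filament of astrocytes, had 35.4 to 41.9 FPKM in WT CON and 33 to 45.5 in GFP-BM CON, and *Rbfox3*, which encodes the neuronal protein NeuN, 82.7 to 86.9 and 79.6 to 85.9. *Dcx*, of immature neurons, was apart at 2.25 to 4.23 and 4.47 to 6.12 FPKM without passing (0.67 ± 0.25, adjusted p = 0.21, corrected value 0.28). Of the other genes whose proteins the study stained, *Map2*, of neuronal dendrites, was apart as well, at 82.6 to 121 and 125 to 140 FPKM (0.32 ± 0.11, adjusted p = 0.19). The study reported less MAP2 staining in the cortex of GFP-BM CON mice. That is a measure of protein, and its direction is opposite to that of the RNA here. *S100b* (-0.07 ± 0.06), *Axl* (-0.05 ± 0.07), *Dlg4* (-0.03 ± 0.04) and *Sv2a* (-0.04 ± 0.04) overlapped, and *Mki67* lay below the filter.

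The same contrast was then read in the hippocampus and in the tissue labelled thalamus, which is thalamus with striatum. Libraries of these regions were not used to choose the genes. All of these libraries except WT CON replicate 1 of each region came from mice that also gave a cortex library. The regions are therefore not independent samples of mice. Of the 16 lower DEGs of the cortex, 16 were lower in sign in the hippocampus, 12 of them with an unadjusted p under 0.05 (18% of all genes), and 15 were lower in the thalamus, 13 of them with such a p (10.7% of all genes). Of the 31 higher DEGs, 23 were higher with an unadjusted p under 0.05 in the hippocampus (19.0% of all genes) and 23 in the thalamus (19.5%). The GC measure was also higher in the controls there, at 1.74 to 3.40 in WT CON and 0.77 to 2.12 in GFP-BM CON of the hippocampus and 1.13 to 3.67 and 0.48 to 0.82 in the thalamus, and its part in these counts was not tested. An alternative chosen after seeing the data left out WT CON replicate 1 of each region, so that only mice of the cortex comparison remained. The counts were then 12 lower and 18 higher in the hippocampus (14.9% and 14.8% of all genes) and 13 and 22 in the thalamus (17.4% and 24.3%). *Csf1r* had a log2 fold change of -0.52 in the hippocampus and -1.02 in the thalamus, or -0.44 and -1.12 without that library, and *Atf4* had -0.46 in both regions. *Gabra2* had 3.14 and 3.38, above its value in the cortex.

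The difference between regions was tested directly. No gene passed in the contrast of cortex against hippocampus or of cortex against thalamus by limma, the smallest adjusted p being 0.22 and 0.69, while 1416 and 479 genes had an unadjusted p under 0.05. *Celf3*, *Mapk3*, *Prss12* and *Rnf217*, which rose in the cortex, were lower in the hippocampus at an unadjusted p under 0.05. For *Rnf217* the cortex value exceeded the hippocampus value by 0.94 ± 0.22 (adjusted p = 0.35). *Kptn*, which encodes kaptin, had the smallest p of that contrast, with log2 fold changes of 0.24 in the cortex and -0.46 in the hippocampus and a difference of 0.70 ± 0.13 (adjusted p = 0.22). *St3gal1*, a sialyltransferase, followed, with a difference of 1.23 ± 0.27 (adjusted p = 0.35). Against the thalamus, *Tbp*, the TATA-binding protein, had the smallest p, with a difference of -0.45 ± 0.14 (adjusted p = 0.69), followed by *Gm16701* (0.80 ± 0.25) and *Ube2l6* (0.72 ± 0.23).

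**Figure D5:**
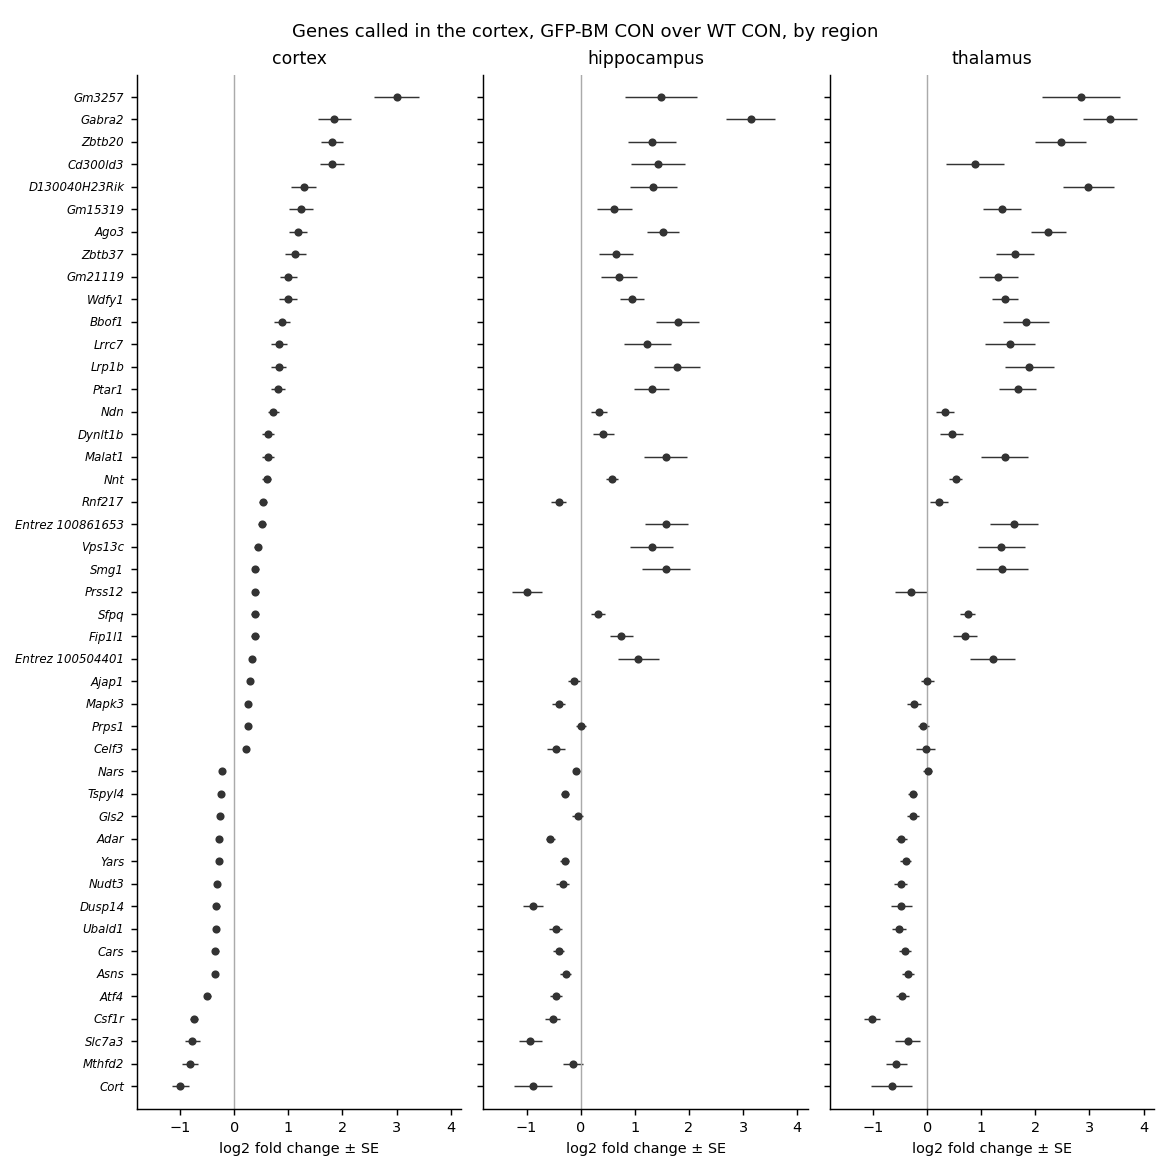
Log2 fold change of GFP-BM CON over WT CON (points) with its SE (bars) for 45 of the 47 DEGs of the cortex, in the cortex, the hippocampus and the thalamus. The cortex values come from the fit of the 11 cortex libraries and the others from the fit of all 34. The tissue labelled thalamus is thalamus with striatum. The lower DEGs shown are below 0 in the hippocampus, whereas some higher DEGs, among them Rnf217, Prss12, Mapk3 and Celf3, are below 0 in the hippocampus.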

How the data were processed

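The authors sequenced paired 150-base reads, aligned them with STAR to mm10 (per the labels and the methods) and counted them per gene, and deposited 1 table of FPKM values, normalised by library size and gene length, for 16389 genes and 34 libraries. Every value above 0 came out as a whole number of reads within a tolerance of 0.0001 (100.0%), so reads could be recovered. A library's total read count limits the precision of low genes. Here, log2(FPKM + 0.1) was fitted with limma-trend (limma 3.58.1, R 4.3.3) over the 11 cortex libraries in 3 groups, for genes with an FPKM of at least 1 in 3 or more of them (14138, less 325 of other biotypes), with two-sided p-values adjusted by Benjamini and Hochberg and a threshold of 0.05. To test regions against each other, 1 model held all 9 groups, and libraries of the same mouse were allowed to correlate. Tables were made in Python 3.11.15. The fits and the read recovery were tested on simulated data. Coordinates, GC content and promoters came from GRCm38.p6, which matched 15947 gene IDs.

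Named were the DEGs, with full values for the 12 largest in each direction and numbered models by count and range except the largest, the DEGs of each list or else up to 4 members with the smallest p, the genes of stained proteins and of the monocyte signature, and the 3 genes with the smallest p of each region contrast. Lists, members and comparisons were chosen with earlier results of these data known. The synthetases and the CSF1R ligands were added after their values were seen, as was an alternative restricted to genes with a GC content without correction. Other alternatives were pseudocounts, filters, biotypes, scalings, variance models, a replicate block, voom, correction for GC content and length, and leaving out each library. The methods name both Illumina NovaSeq and HiSeq platforms, and the sources used here do not give which of them read each library. The part of the instrument in the GC measure and the other results was therefore not tested. The voom fit assumed the recovered reads. Some DEGs are counted but not reported by name here.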

Additional observations from a re-analysis of the deposited data

Results flagged for a closer look

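In 50 groups of 4 GFP-BM CON values checked, a library lay far from the other 3 for 7 genes, by Dixon's test at 95%, which chance meets in about 1 group in 20. *Prps1* had 38.5 FPKM in replicate 3 against 36.2 to 36.6 in the others. *Gm3257* had 7.31 FPKM in replicate 1 against 3.09 to 3.72, and *Ago3* had 4.65 FPKM in the same library against 4.14 to 4.2. *D130040H23Rik* had 3.73 FPKM in replicate 4 against 3.07 to 3.08. *Zbtb37* had 1.97 FPKM in replicate 3 against 2.36 to 2.41, and *Gls2* had 11.2 FPKM in replicate 2 against 11.5 in each of the others.

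*Xist* had 0.0185 FPKM in replicate 1 against 49.1 to 53.3, and that library had 12.7 FPKM of the Y-linked gene *Ddx3y*, against 0 to 0.0265 in the WT CON libraries. The hippocampus and thalamus libraries of the same mouse also held Y-linked transcripts, 3 libraries in all. Its part in the other results was not tested beyond leaving the library out.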

How the results depend on the processing

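The count of 47 DEGs became 71 after correction for GC content and length, 71 after quantile normalization, 97 with array quality weights, 6 with eBayes without trend and 0 with all 34 libraries in one fit. With the replicate block in limma it was 0, at a smallest adjusted p of 0.0564 and with 1920 genes at an unadjusted p under 0.05. Replicate numbers are shared by different mice, and the deviations of same-numbered libraries correlated at 0.061, 0.048 and 0.234, so the numbers mark no known pairing. In the remaining settings other than leaving out a library the count was within 1.5 times of 47. Leaving out 1 library gave between 6 and 236 DEGs. Counts were 20, 8 and 30 without WT CON replicates 1, 2 and 3, 16, 7, 6 and 8 without GFP-BM CON replicates 1 to 4, and 236, 23, 18 and 44 without GFP-BM REPOP replicates 1 to 4. The genes without overlap in cortex numbered 2276, and between 2276 and 3556 with 1 library left out, by construction more with fewer libraries. The contrast with the hippocampus called between 0 and 7 genes, the 7 without hippocampus WT CON replicate 4, and that with the thalamus called 0 in every setting. *Rnf217* turned to -0.05 ± 0.15 after correction for GC content and length, which lies within its SE of 0. It was the only change of sign among 1258 values of the 47 DEGs. Of these values, 765 kept direction and call and 492 kept direction without the call. The causes were not tested. Groups of 3 and 4 mice leave small changes undetected, and so does the depth for genes near the filter.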
